A study of Mus musculus with 3 samples.

Results

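B2 and B3 elements are short interspersed elements (SINEs) of rodents, repeats that spread through the mouse genome as copies of a transcript derived from a tRNA. They are the names in the deposited tables that start with B2 or B3: B2_Mm1a, B2_Mm1t, B2_Mm2, B3 and B3A, 5 of the 18484 repeat names listed. The measurements are RNA immunoprecipitation sequencing (RIP-seq) read counts, from RNA that came down with an antibody from hippocampus. There were 3 libraries, 1 per group: PS19 mice with ZBP1 as the antibody target, PS19 mice with ZNA as the target, and wild-type (WT) mice with ZNA as the target. All 3 groups came from mice aged 9 months on the C57BL/6 background and differed by label in genotype or in antibody target.

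ZBP1 is an innate immune sensor of nucleic acid in the left-handed Z conformation, and ZNA denotes nucleic acid of that shape. PS19 is a tauopathy model with a mutant form of human tau as its transgene, which WT mice lack. How many mice went into a library is not stated in the labels, and no ZBP1 pull-down from WT, no input and no control-antibody library was analysed here. With 1 library per group no value has a replicate error and no comparison has a test. The intervals given are exact 95% intervals for counting error only, and they do not show how far 2 libraries of the same kind would differ.

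A B2 element carries an internal promoter for RNA polymerase III, so it can be transcribed on its own into a short RNA. Copies also lie in introns and other transcribed parts of genes, where they are read as part of a longer RNA polymerase II transcript. B2 RNA made by polymerase III is known to increase after heat shock and to bind RNA polymerase II, and neighbouring copies in opposite orientation can pair into double-stranded RNA. B2_Mm1a, B2_Mm1t and B2_Mm2 are subfamilies of the B2 element found in mouse, while B3 and B3A are related, older elements that share its tRNA-derived part. Each count pools all copies of a name, so it cannot be assigned to one locus or to one of the polymerases, and reads of similar subfamilies may be exchanged between names. Counts of different names depend also on how many copies of what length each has, so a rank by read count given below orders reads on a name and not expression per copy or per length.

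The libraries held 1425383 (PS19 ZBP1), 2918985 (PS19 ZNA) and 3234786 (WT ZNA) reads on repeat names. The 2 ribosomal RNA names LSU-rRNA_Hsa and SSU-rRNA_Hsa took 94.8%, 89.4% and 95.5% of them, leaving 74474, 308613 and 145372 reads outside rRNA. Every B2 or B3 value is therefore given on 2 scales: per 1000000 reads of the library total (CPM) and per 1000000 reads outside these rRNA names. The tables name repeats and not protein-coding genes, so the hippocampal origin could not be checked against cell markers. The one neuronal RNA listed, BC1_Mm, had 33, 146 and 77 reads, or 23.2, 50.0 and 23.8 CPM, in the same order of libraries.

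The 5 names together took 6239 reads of the PS19 ZBP1 library, 12724 of the PS19 ZNA library and 5736 of the WT ZNA library. As a share of the library total this was 0.438% (95% Clopper-Pearson interval 0.427 to 0.449%), 0.436% (0.428 to 0.444%) and 0.177% (0.173 to 0.182%). Per library total, the PS19 libraries were thus alike and WT ZNA was low. As a share of the reads outside rRNA it was 8.38% (8.18 to 8.58%), 4.12% (4.05 to 4.19%) and 3.95% (3.85 to 4.05%). On that scale the ZNA libraries of PS19 and WT lay close together and the ZBP1 library was high. Which library stands apart therefore depends on the scale.

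B3 held the most reads of the 5 names. It had 3272 reads in PS19 ZBP1, 6776 in PS19 ZNA and 3038 in WT ZNA, or 2296, 2321 and 939 CPM. Per 1000000 reads outside rRNA these were 43935, 21956 and 20898. In the ZBP1 library B3 had more reads than any other name outside rRNA, while its rank was 3 in ZNA of PS19 and 6 in ZNA of WT. B3A, its close relative, had 1467, 2947 and 1358 reads, which are 1029, 1010 and 420 CPM. It ranked 6, 26 and 25 among the names outside rRNA. All 5 names, B2 as well as B3, had their highest rank by read count in the ZBP1 library. In the same order of libraries, B2_Mm2 ranked 11, 40 and 45, and B2_Mm1t 63, 112 and 121. B2_Mm1a ranked 109, 139 and 137.

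B2_Mm2 was the B2 name with the most reads, 1022 in PS19 ZBP1, 1951 in PS19 ZNA and 864 in WT ZNA. This amounted to 717, 668 and 267 CPM, and to 13723, 6322 and 5943 per 1000000 reads outside rRNA. B2_Mm1t had 308, 625 and 275 reads, or 216, 214 and 85.0 CPM. Like the B3 names, both B2 names were at similar CPM in the PS19 libraries and lower in WT ZNA. B2_Mm1a had the fewest reads, 170, 425 and 201, or 119, 146 and 62.1 CPM. Within PS19 its CPM was lower with ZBP1 than with ZNA as the target, and the CPM values of all 5 names were lowest in WT ZNA.

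**Figure D1:**
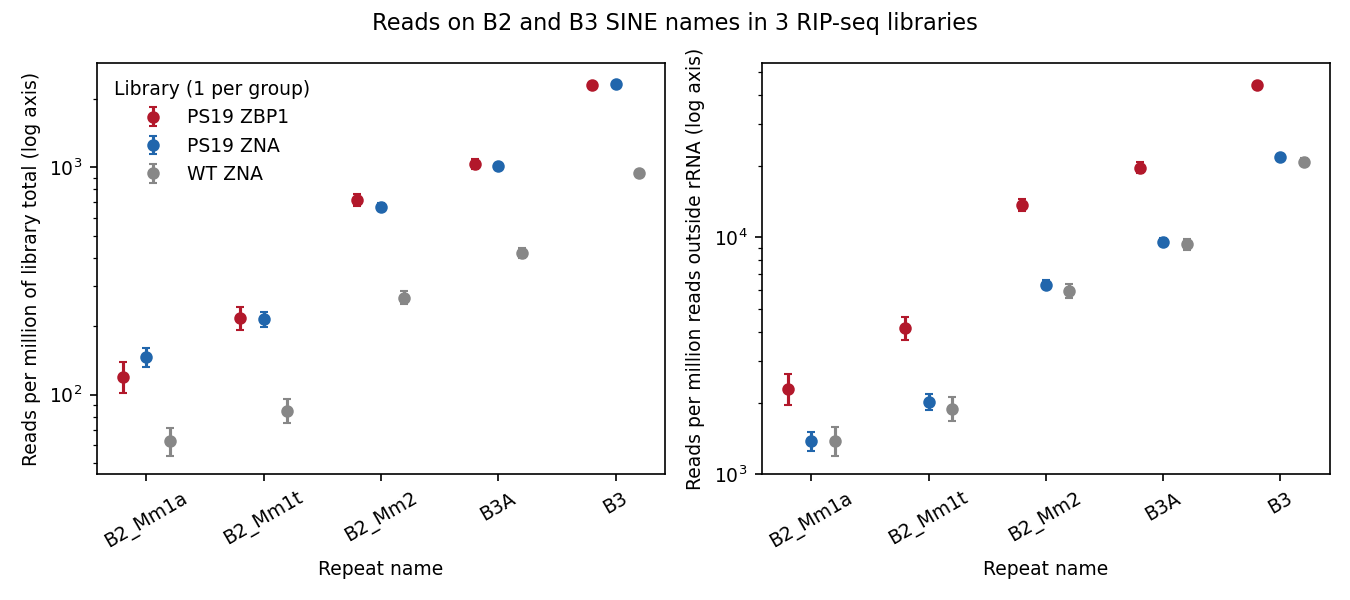
Reads on each B2 and B3 name per 1000000 of the library total (left) and per 1000000 reads outside rRNA (right), on log axes; points are single libraries and bars are exact 95% Poisson intervals for counting error. On the left the PS19 ZBP1 and PS19 ZNA points lie together above WT ZNA for all names but B2_Mm1a, where ZBP1 (119 CPM) lies between ZNA of PS19 (146 CPM) and of WT (62.1 CPM); on the right the ZBP1 points lie above both ZNA points.

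The make-up of the B2 and B3 reads was nearly the same in every library. B3 took 52.4%, 53.3% and 53.0% of them in PS19 ZBP1, PS19 ZNA and WT ZNA, and B3A took 23.5%, 23.2% and 23.7%. B2_Mm2 took 16.4%, 15.3% and 15.1%, and B2_Mm1t took 4.94%, 4.91% and 4.79%. B2_Mm1a took 2.72% (2.33 to 3.16%), 3.34% (3.04 to 3.67%) and 3.50% (3.04 to 4.01%). The ratio of B2 to B3 reads, with B3A counted among the latter, was 0.317, 0.309 and 0.305. It differed by 1.01-fold between PS19 and WT ZNA (0.940 to 1.09) and by 1.03-fold between ZBP1 and ZNA of PS19 (0.954 to 1.10), and both intervals include 1. Such ratios within a library do not depend on how the library was scaled.

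Each name was then set against the other 4 in each pair of libraries. Of these 15 ratios, 13 had an interval that included 1. Both exceptions were B2_Mm1a in the ZBP1 library: relative to the other 4 names its reads were 1.23-fold lower than in PS19 ZNA (1.03 to 1.49) and 1.296-fold lower than in WT ZNA (1.05 to 1.61). The intervals were not adjusted for the 15 ratios, both exceptions use the same 170 reads, and B2_Mm1a was singled out after its values were seen. Within B2, the B2_Mm1a to B2_Mm2 ratio was 0.166 in the ZBP1 library, 0.218 in PS19 ZNA and 0.233 in WT ZNA. The B2_Mm1t to B2_Mm2 ratio was 0.301, 0.320 and 0.318. Set directly against B2_Mm1t, B2_Mm1a in the ZBP1 library was at 0.812 of its ratio in PS19 ZNA (0.644 to 1.02), an interval that includes 1, and at 0.755 of its ratio in WT ZNA (0.577 to 0.989).

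The ZNA pull-downs of PS19 and WT address which repeat RNA came down with the ZNA antibody in the 2 genotypes. Per library total, B2 and B3 reads were 2.46-fold higher in PS19 than in WT (95% exact interval 2.38 to 2.54). The B2 names were 2.48-fold higher (2.33 to 2.65) and the B3 names 2.45-fold higher (2.37 to 2.54). Single names ranged from 2.34-fold for B2_Mm1a (1.98 to 2.79) to 2.52-fold for B2_Mm1t (2.18 to 2.91). These are shares of the reads pulled down, and with no input library they do not give the amount of RNA in the tissue. Nor can more cells carrying an RNA and more RNA per cell be told apart in tissue of this kind.

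All 5 names were at least 2-fold higher in PS19 ZNA per library total, but so were 74.3% of the 713 names compared, and 0.421% were at least 2-fold lower. On the log2 scale of CPM with a pseudocount of 1, the 5 names had a median of 1.305 and all 713 names a median of 1.24. The reads outside rRNA as a whole were 2.35-fold higher in the PS19 library. Per reads outside rRNA, pooled B2 and B3 reads were 1.04-fold higher in PS19 (1.01 to 1.08), and none of the 5 names was past 2-fold, whereas 3.52% of the 711 names compared lay at least 2-fold above WT and 2.39% as far below it. B3 was then 1.05-fold higher (1.01 to 1.10), and the intervals of the other 4 names included 1, with B2_Mm1a at 0.996-fold (0.840 to 1.18). The median log2 ratio of the 5 names was 0.07, the same as that of all 711 names to 2 decimals. The B2 and B3 reads thus differed between these libraries by nearly the same factor as all reads outside rRNA (2.46-fold and 2.35-fold).

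**Figure D2:**
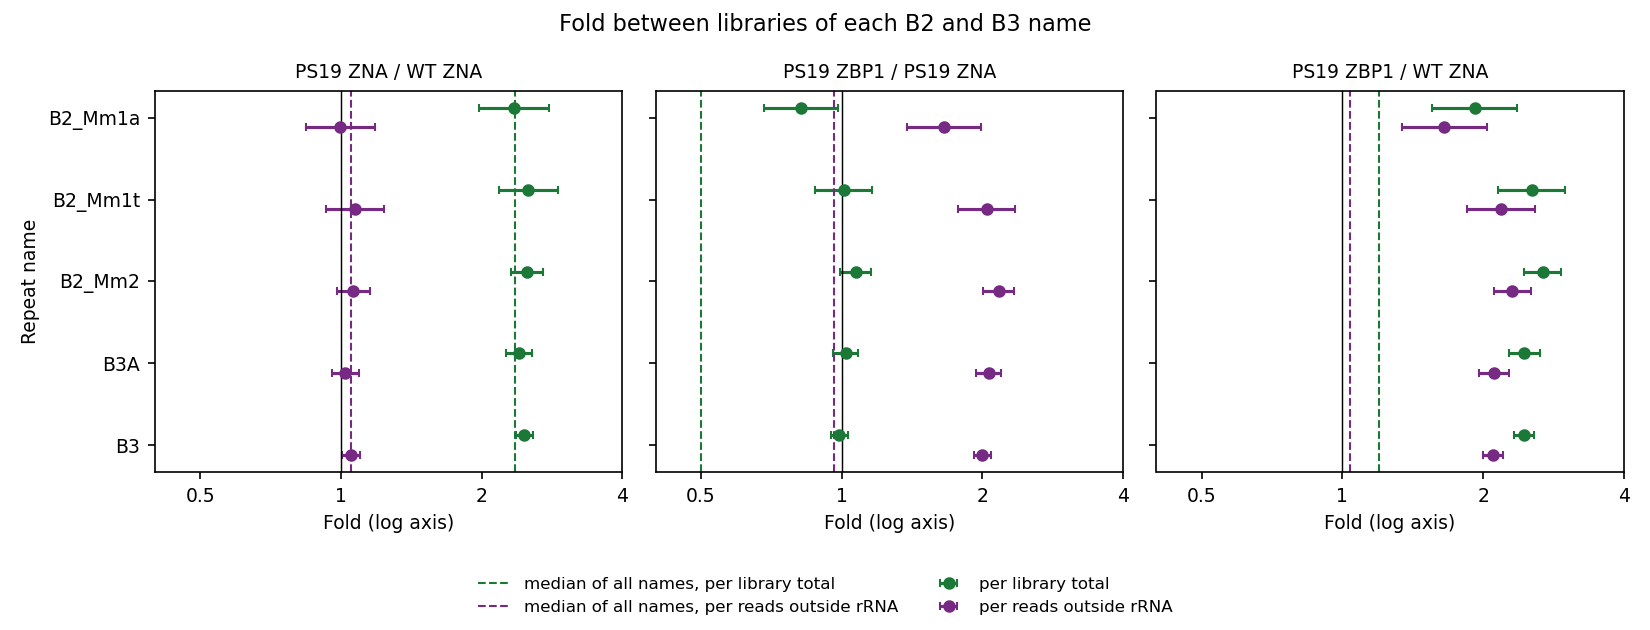
Fold between libraries of each B2 and B3 name per library total (green) and per reads outside rRNA (purple), on log axes; points are ratios of single libraries, bars are exact 95% intervals for counting error, and dashed lines are the medians of all names compared on the log2 scale with a pseudocount of 1. The names lie at the median of all names in the first panel on both scales, and above it in the other panels on both scales.

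The ZBP1 and ZNA pull-downs of PS19 address which repeat RNA came down with the sensor and which with the ZNA antibody. Per library total, B2 and B3 reads were at the same share in both, with a ZBP1 to ZNA ratio of 1.004 (0.974 to 1.035). The ratio was 0.989 for B3 (0.948 to 1.03), 1.02 for B3A (0.957 to 1.09), 1.07 for B2_Mm2 (0.994 to 1.16) and 1.01 for B2_Mm1t (0.878 to 1.16). B2_Mm1a was 1.22-fold lower in the ZBP1 library (1.02 to 1.47).

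Most other names were lower in the ZBP1 library. None of the 5 names was past 2-fold per library total, whereas 50.1% of the 682 names compared were at least 2-fold lower in ZBP1 and 0.293% were as far above. The median log2 ratio was 0.01 for the 5 names and -1.002 for all 682. Per reads outside rRNA, pooled B2 and B3 reads were 2.03-fold higher in the ZBP1 library (1.97 to 2.10). On this scale 4 of the 5 names were at least 2-fold higher, against 8.09% of 680 names, and 8.09% were at least 2-fold lower. Some names of other SINE families, given below, were past this limit too. B2_Mm2 was 2.17-fold higher (2.01 to 2.34), B3A 2.06-fold (1.94 to 2.20), B2_Mm1t 2.04-fold (1.78 to 2.34) and B3 2.001-fold (1.92 to 2.09), which is at the limit. B2_Mm1a was 1.66-fold higher (1.38 to 1.99) and stayed under it. Only the interval of B2_Mm2 lay wholly above 2-fold, so the count of 4 is not firm, while the median log2 ratio of the 5 names was 1.03 against -0.05 for all 680. Under TMM scaling, which aims to centre the names, the median log2 ratio was 0.93 for the 5 names and -0.13 for all 682. On that scale 1 of 5 names was at least 2-fold higher, against 6.45%. In PS19 against WT ZNA it was 0 of 5, against 3.51%.

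**Figure D3:**
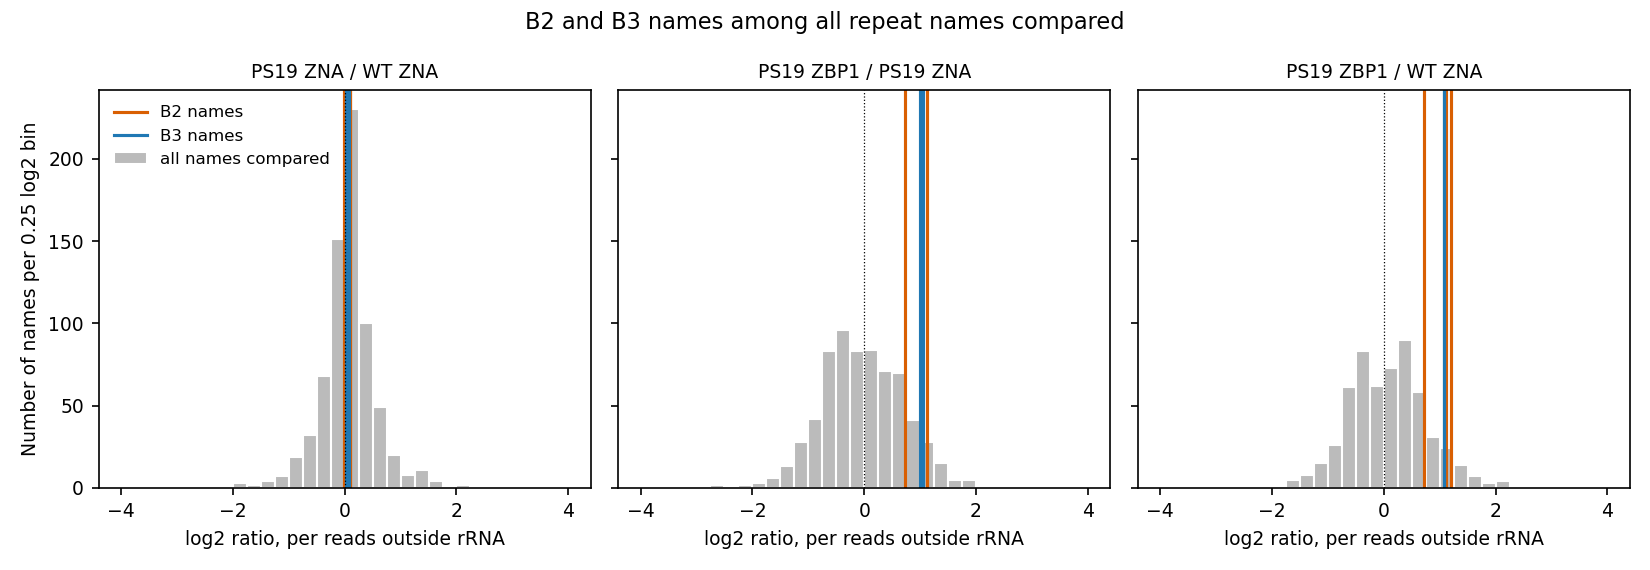
Number of repeat names per bin of the log2 ratio between 2 libraries per reads outside rRNA (grey bars), with the 5 B2 and B3 names as vertical lines. The lines lie at the centre of the bars for PS19 ZNA against WT ZNA (median 0.07) and in their upper part for both ratios of the ZBP1 library (medians 1.03 and 1.07).

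The ZBP1 library of PS19 was also set beside the ZNA library of WT, a pair that differs in both genotype and antibody and shares a library with each of the comparisons above. Per library total, B2 and B3 reads were 2.47-fold higher in the ZBP1 library (2.38 to 2.56), and 4 of 5 names were at least 2-fold higher, against 12.9% of the 574 names compared and 3.48% that were at least 2-fold lower. Per reads outside rRNA they were 2.12-fold higher (2.05 to 2.20), again with 4 of 5 names at least 2-fold higher, against 9.27% of 572 and 6.12% that were at least 2-fold lower. Under TMM scaling it was 1 of 5, against 6.97%. B2_Mm1a was the name under the limit on both scales, at 1.92-fold (1.56 to 2.37) and 1.65-fold (1.34 to 2.04). B2_Mm2 had the highest ratio on both, 2.68-fold (2.45 to 2.94) and 2.31-fold (2.11 to 2.53).

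Other SINE families show where B2 and B3 stand among short repeats. The B1 names, 10 in all, derive from 7SL RNA and not from a tRNA. B4 and B4A and the ID_B1 element join ID-related and B1-related parts, and ID elements derive from BC1 RNA. MIR names belong to an old tRNA-derived SINE family shared by mammals. B2 and B3 reads made up 37.8% of all SINE reads in PS19 ZBP1 (37.0 to 38.5%), 36.4% in PS19 ZNA (35.9 to 36.9%) and 36.2% in WT ZNA (35.4 to 36.9%). Their share of the SINE reads was thus much the same in each library, and slightly higher in ZBP1.

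Between PS19 and WT ZNA, B2 and B3 reads kept their ratio to most of these families. There were 3.14 B2 and B3 reads per B1 read in PS19 and 3.09 in WT, a 1.02-fold difference (0.953 to 1.08). Per read of the ID and B4 names the values were 0.892 and 0.902, a ratio of 0.989 (0.947 to 1.03), and per LINE-1 read 0.0875 and 0.0890, a ratio of 0.983 (0.951 to 1.02). Relative to the 5 MIR names, in contrast, B2 and B3 reads were higher in PS19, with 7.57 against 6.16 per MIR read, a 1.23-fold difference (1.13 to 1.34). Per library total MIR reads were 1.9997-fold higher in PS19 (1.84 to 2.17). At least 2-fold higher were 2 of the 5 MIR names, all 10 B1 names and both B4 names, against 74.3% of all 713 names. Per reads outside rRNA none of the MIR, B1 or B4 names was (0 of 5, 0 of 10 and 0 of 2), and MIR reads were 1.18-fold lower in PS19.

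Between ZBP1 and ZNA of PS19, B2 and B3 lay between the other SINE families. Per B1 read there were 2.61 B2 and B3 reads in the ZBP1 library and 3.14 in the ZNA library, 1.20-fold fewer (1.13 to 1.27). The 10 B1 names had a median log2 ratio of 0.21 per library total, against 0.01 for the B2 and B3 names. Per read of the ID and B4 names there were 1.06 in ZBP1 and 0.892 in ZNA, 1.19-fold more (1.14 to 1.24). B4 and B4A had a median log2 ratio of -0.25, and ID_B1, the only ID name with enough reads to be compared, one of -0.21. Per MIR read there were 8.93 and 7.57, 1.18-fold more in ZBP1 (1.07 to 1.30). Per library total, the pooled ZBP1 to ZNA ratio was 1.71 for PB1 names (1.46 to 2.02), 1.21 for B1 (1.15 to 1.27) and 1.11 for RSINE1 (1.03 to 1.20). It was 0.870 for ID (0.813 to 0.931), 0.852 for MIR (0.779 to 0.931) and 0.841 for B4 (0.812 to 0.870), with the B2 and B3 value of 1.004 between these groups. The ID value is nearly all ID_B1, which had 1192 of 1204 ID reads in ZBP1 and 2820 of 2834 in ZNA. It therefore says little about the other ID names. Per reads outside rRNA, 9 of 10 B1 names, 5 of 5 PB1 names and RSINE1 were at least 2-fold higher in ZBP1. For MIR it was 1 of 5 names, for B4 0 of 2 and for ID 0 of 1, against 8.09% of all 680 names. The pooled ratio on this scale was 3.47 for PB1, 2.44 for B1 and 2.25 for RSINE1, against 2.03 for B2 and B3. It was 1.76 for ID, 1.72 for MIR and 1.70 for B4.

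The largest of these within-library differences was to LINE-1, the long autonomous retrotransposons whose protein machinery B2 and other SINEs use to move. B2 and B3 reads numbered 0.277 per LINE-1 read in the ZBP1 library, 0.0875 in PS19 ZNA and 0.0890 in WT ZNA. This was 3.17-fold more in ZBP1 than in ZNA of PS19 (3.07 to 3.28) and 3.12-fold more than in ZNA of WT (2.997 to 3.24). It held for B2 (3.23-fold, 3.03 to 3.44) and B3 names (3.15-fold, 3.03 to 3.27) alike within PS19. LINE-1 reads themselves were 3.16-fold lower in the ZBP1 library per library total, and 105 of 123 LINE-1 names compared were at least 2-fold lower, against 50.1% of all 682 names. Per reads outside rRNA they were 1.56-fold lower, with 17 of 123 names at least 2-fold lower and 2 at least 2-fold higher, against 8.09% of all names each way.

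**Figure D4:**
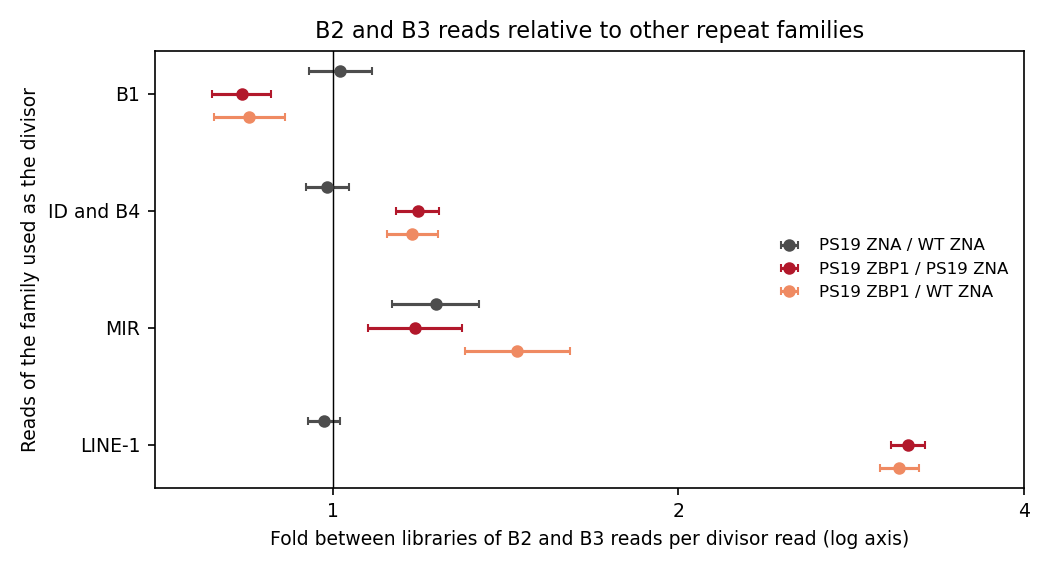
Fold between libraries of the number of B2 and B3 reads per read of another repeat family, on a log axis; points are ratios of single libraries and bars are exact 95% intervals for counting error. The PS19 ZNA to WT ZNA points lie near 1 except for MIR (1.23), while both ratios of the ZBP1 library lie below 1 for B1 (0.833 and 0.846) and above 3 for LINE-1 (3.17 and 3.12).

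The names whose pattern over the 3 libraries was most like that of pooled B2 and B3 reads were found among 134 other names that averaged at least 100 CPM. Likeness was the distance between log2 values of CPM with a pseudocount of 1, each centred on its mean over the 3 libraries. The 5 nearest were ORR1B1-int (distance 0.026), RSINE1 (0.13), ID_B1 (0.15), B4A (0.20) and B1_Mur4 (0.21), against a median distance of 1.07 over the 134 names. ORR1B1-int, the internal part of an LTR retrotransposon, had 179, 371 and 167 reads, or 126, 127 and 51.6 CPM, in PS19 ZBP1, PS19 ZNA and WT ZNA. RSINE1, a rodent SINE, had 697, 626 and 250.4 CPM. The other 3 are SINE names too, so 4 of the 5 nearest names were SINEs, as were 10 of the 134 names searched (7.46%). Among the 5 B2 and B3 names, B3, B3A and B2_Mm1t lay within 0.024 of the pooled pattern, B2_Mm2 at 0.089 and B2_Mm1a at 0.28. With 3 libraries this likeness rests on 3 values per name and is a description only.

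BC1_Mm, the neuronal RNA related to ID elements, did not follow B2 and B3 in the ZBP1 library but lay near the median of all names. Its log2 ratio of ZBP1 to ZNA in PS19 was -1.08 per library total, against a median of -1.002 over 682 names. Per reads outside rRNA it was -0.09, against a median of -0.05 over 680 names. There were 189 B2 and B3 reads per BC1_Mm read in PS19 ZBP1, 87.2 in PS19 ZNA and 74.5 in WT ZNA. The ratio was 2.17-fold higher in ZBP1 than in ZNA of PS19 (1.48 to 3.27), and that between PS19 and WT ZNA was 1.17-fold (0.874 to 1.56), an interval that includes 1. These values rest on 33 BC1_Mm reads in the ZBP1 library.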

How the data were processed

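The deposited values are read counts per repeat name, whole numbers with no scaling, per the file headers. Per the submitters' processing notes, Trim Galore 0.6.5, STAR 2.5.3a, featureCounts 2.0.4 and build mm39 were used, with no role or order given. The repeat annotation, the strand setting and the treatment of reads mapping to many copies are not given in the sources used here, and the last can move reads between related names. Element sequences and copy positions were not used here.

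Groups came from the sample titles. Reads were scaled to the library total (CPM; 1 read is 0.702, 0.343 and 0.309 CPM in PS19 ZBP1, PS19 ZNA and WT ZNA) or to the reads outside the 2 rRNA names. Comparison of a name required 1 CPM on average over the pair and 20 reads in sum; all 5 B2 and B3 names passed in all 3 comparisons. Log2 ratios used a pseudocount of 1 CPM, kept at the same weight in reads on each scale. Names were counted as past the limit at 2-fold. Fold intervals are exact conditional intervals, ratio-of-ratio intervals are conditional exact odds-ratio intervals and read intervals are Poisson; reads carry no molecular identifiers, so all cover counting error only. With 1 library per group, edgeR's test could not be fitted. The comparison was tested on simulated data with changed names. Other families were taken by fixed name patterns, and SINE reads cover 37 listed names. All 5 member names are reported, and the names most like them followed a distance rule. The members, lists and rules were chosen with earlier results of these data known. Alternatives were TMM scaling (edgeR 4.0.16, R 4.3.3), pseudocounts of 0.1 and 5, other filters and limits of 1.5-fold and 4-fold. Counting and plots used scipy 1.17.1, pandas 2.3.3, numpy 2.4.6 and matplotlib 3.10.9 under Python 3.11.15.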

Additional observations from a re-analysis of the deposited data

How the results depend on the processing

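For PS19 against WT ZNA, the log2 ratio of pooled B2 and B3 reads was 1.298 per library total, 0.063 per reads outside rRNA and 0.027 under TMM, which aims to centre the names. The median of the 5 names went from 1.305 to 0.071 and 0.035, and the number past 2-fold from 5 to 0 under both. Turned in sign were B2_Mm1a (-0.0057 per reads outside rRNA, -0.042 under TMM) and B3A (-0.0050 under TMM). For ZBP1 against ZNA of PS19, the pooled value became 1.02 and 0.93 in place of 0.0060, the median 1.03 and 0.93 in place of 0.01, and the number past 2-fold 4 and 1 in place of 0. For ZBP1 of PS19 against WT ZNA, the pooled value became 1.09 and 0.96 in place of 1.304, the median 1.07 and 0.95 in place of 1.29, and the number 4 and 1 in place of 4. These shifts follow from the construction, since rRNA sets the library total.

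Scaling to 1 rRNA name was chosen after seeing the values. In the same order of comparisons, the pooled values were 1.20, -0.44 and 0.77 per LSU-rRNA_Hsa read and 1.53, 0.29 and 1.82 per SSU-rRNA_Hsa read, so the direction of ZBP1 against ZNA in PS19 depended on the rRNA name used. At a 4-fold limit per library total, none of the 5 B2 and B3 names was past it in PS19 against WT ZNA or in ZBP1 against WT ZNA (0 and 0). Few of all names compared were. In PS19 against WT ZNA, successive 0.25 log2 bins from 2 up held 11, 11, 3 and 2 of 713 names, and none lay below -2. In ZBP1 against WT ZNA, such bins held 3, 4 and 1 of 574 names, and each bin below -2 held at most 1. Without B2_Mm2, the log2 ratio between libraries of B2 reads per B3 read was -0.098 for ZBP1 against ZNA of PS19 and -0.10 for ZBP1 against WT ZNA, in place of 0.036 and 0.054; the cause was not tested. Pseudocounts of 0.1 and 5 left the counts of names past 2-fold as they were. Of 60 recomputed ratios of single names, 32 stayed within their counting interval and 25 moved out of it. The other 3 changed sign from a log2 ratio of at least 1 in size, the only sign changes counted apart. Among those that moved, B3 and B2_Mm1a also changed sign in ZBP1 against ZNA of PS19. B3 went from -0.016 to 1.0003 per reads outside rRNA and 0.91 under TMM, and B2_Mm1a from -0.29 to 0.72 and 0.63.

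With no filter on low counts the medians of all names were 0.98, -0.71 and 0.25 in place of 1.24, -1.002 and 0.26. The last was -0.07 under TMM. No paired analysis was possible because each group has 1 library, and leaving out a library was not possible either. Depth limits B2_Mm1a most, with 170 reads in the ZBP1 library.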
